A study of Bos taurus with 6 samples.

Results

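The heat shock genes HSPA1A, HSPA8, HSPA12A, HSP90AA1, HSPH1, DNAJA1, DNAJB1, HSPB1, HSPD1 and HSPE1 were followed in pools of bovine primordial follicles (PMF), each a small arrested oocyte wrapped in flat pre-granulosa cells. They are 10 of the 23704 genes to which the transcripts of 6 libraries could be summed, and all 10 were tested between groups. The list was chosen by gene name with the T16 and T0 values of these same libraries already known. The differences between T16 and T0 are therefore given for the 10 genes as a description, and no p-value is printed for any of them. Where it is said below how many of them passed a threshold, that is a description too.

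The T16 group held 3 pools of isolated PMF retrieved after 16 h of culture, and the T0 group held 3 pools retrieved after collection. Neither group carried a genetic change or an added agent that the labels name. By the study's methods, ovaries of young abattoir Holstein Friesian dairy cows were kept cold, cortical strips were homogenized, and follicles were sorted through sieves and by eye before a short recovery in warm medium with insulin and FSH. The culture of the T16 pools and the animals behind each pool are not given in the sources used here, so the p-values below measure the spread between pools.

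Heat shock proteins are molecular chaperones. The HSP70 proteins (HSPA1A, HSPA8) bind unfolded segments of other proteins, J domain proteins (DNAJA1, DNAJB1) deliver these clients and switch on the ATPase of HSP70, and HSPH1, of the HSP110 family, exchanges the nucleotide so that the client is let go. HSP90AA1 takes over clients close to their folded state, such as steroid receptors and kinases, and in mitochondria HSPD1 (HSP60) forms a folding chamber that HSPE1 (HSP10) closes like a lid. HSPA8 is made constantly, whereas HSPA1A and DNAJB1 are textbook targets of the transcription factor HSF1, which is set free when unfolded proteins occupy the chaperones.

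The libraries held 25761986 to 36703016 estimated read counts at T16 and 22174653 to 30212698 at T0. Transcript levels are given as TPM (the authors' length-corrected shares of a library). Group differences are log2 fold changes of T16 over T0 with their standard error (SE), fitted by edgeR on counts with TMM normalization. All 16 oocyte markers had a TPM above 0 in all 6 libraries, with as few as 1 count (DPPA3 in T16 replicate 2). Their summed level was 2303, 49.3 and 819 TPM in T16 replicates 1, 2 and 3, against 512, 2259 and 3179 TPM in T0 replicates 1, 2 and 3. T16 replicate 2 and T0 replicate 1 were thus poorest in oocyte transcripts within their groups. The 7 granulosa markers summed to 127 to 797 TPM at T16 and 480 to 1437 TPM at T0, and 3 of them were lower in every T16 library than in any T0 library. These were FOXL2 (3.37 to 20.1 TPM at T16, 37.3 to 141 TPM at T0), WNT6 (0.0547 to 15.1 and 39.0 to 155 TPM) and FSHR (0 to 3.46 and 10.8 to 45.6 TPM), with FSHR at 0 in T16 replicate 3. The 6 smooth muscle and pericyte markers summed to 23.4 to 105 TPM at T16 and 111 to 434 TPM at T0, with ACTA2, MYH11 and RGS5 at 0 in some libraries. Their sum was lower in every T16 library, whereas of the single genes 2 of 6, ACTA2 and MYH11, were. The part of these granulosa and smooth muscle markers in the differences below was not tested. In such pools fewer cells of a type and less RNA per cell cannot be told apart.

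HSPA8 was the most abundant of the 10 genes in 5 of the 6 libraries, and its T16 mean, like those of HSPH1, DNAJA1 and HSP90AA1, was above the T0 mean. HSPA8 had 5840, 3742 and 3066 TPM in T16 replicates 1, 2 and 3, against 1978, 1398 and 3085 TPM in the T0 replicates in the same order. It ranked between 4th and 12th of all genes by TPM in the T16 libraries and between 9th and 42nd in the T0 libraries. The log2 fold change was 1.06 (SE 0.48). Leaving out T0 replicate 2 gave 0.71, and leaving out T0 replicate 3 gave 1.33. On the TPM scale T16 replicate 3 and T0 replicate 3 were level, whereas on the scale of CPM (counts scaled by library size and TMM factor) every T16 library was above every T0 library.

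HSPH1, the exchange factor, had 472, 261 and 202 TPM in the T16 replicates, against 101, 93.2 and 145 TPM in the T0 replicates. All 3 T16 libraries were above all 3 T0 libraries on both scales. The means were 312 TPM (SD 142, n = 3) at T16 and 113 TPM (SD 28.1, n = 3) at T0, and the log2 fold change was 1.55 (SE 0.39). It was 1.11 without T16 replicate 1, the library with the highest value.

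DNAJA1, a J domain partner of HSPA8, had 925, 532 and 472 TPM in the T16 replicates, against 237, 286 and 689 TPM in the T0 replicates. T0 replicate 3 lay inside the T16 range, so the groups overlapped, and the log2 fold change of 0.80 (SE 0.46) was 1.32 without that library and 0.39 without T16 replicate 1. HSP90AA1, the stress-responsive cytosolic HSP90, differed less, with 1310, 1126 and 829 TPM at T16, against 770, 725 and 840 TPM at T0. Its log2 fold change was 0.57 (SE 0.35), and T16 replicate 3 fell just below T0 replicate 3 in TPM but not in normalised CPM.

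HSPA12A, a distant and atypical relative of HSP70, differed most of the 10 genes between groups. It had 18.6, 12.6 and 6.80 TPM in the T16 replicates, against 0.205, 0.377 and 0.621 TPM in the T0 replicates. These rest on 1745, 1049 and 957 counts at T16 and on 19, 42 and 48 counts at T0. No T16 library was near any T0 library, and the log2 fold change of 5.14 (SE 0.59), a 35.3-fold difference, stayed between 4.71 and 5.44 with any 1 library left out. HSPA12A was nevertheless among the scarcer of the 10 genes, with a T16 mean of 12.7 TPM (SD 5.88, n = 3), and 1 of its 2 transcripts in the files carried 95.1% to 100% of its TPM in the T16 libraries. In T0 replicate 3 the other transcript carried 61.1%, at a level where few reads decide the split.

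**Figure D1:**
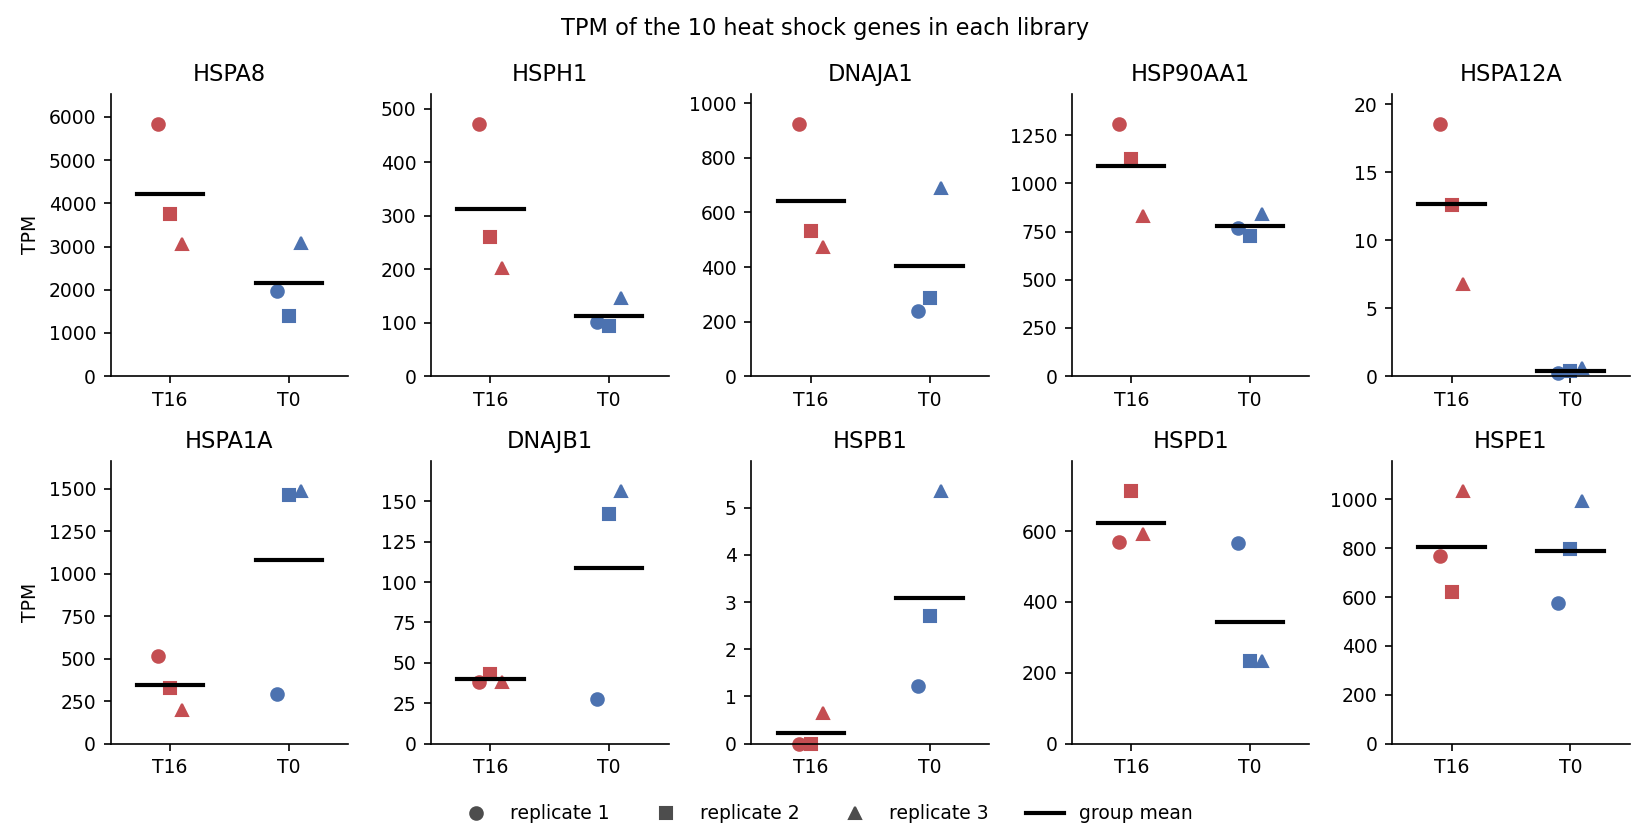
TPM of the 10 heat shock genes (vertical axes, each from 0) in the 3 T16 libraries (left, red) and the 3 T0 libraries (right, blue); symbols mark replicate numbers and black lines the group means (n = 3). HSPA12A and HSPH1 are higher in every T16 library, and for HSPA1A, DNAJB1 and HSPD1 T0 replicate 1 sits with the T16 libraries.

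The inducible pair HSPA1A and DNAJB1 ran the other way, and T0 replicate 1 stood apart from the other T0 libraries in both. HSPA1A had 517, 325 and 199 TPM in the T16 replicates, against 292, 1463 and 1485 TPM in the T0 replicates. T0 replicates 2 and 3 were thus above every T16 library, while T0 replicate 1 lay within the T16 range, so the groups overlapped. The log2 fold change was -1.50 (SE 0.61) with all libraries, -1.93 without T0 replicate 1 and -1.97 without T16 replicate 1. By rank HSPA1A was the 38th and 43rd gene by TPM in T0 replicates 2 and 3, and between the 297th and the 1039th in the T16 libraries.

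DNAJB1, the J domain protein induced along with HSPA1A, had 37.9, 42.9 and 38.4 TPM in the T16 replicates, against 27.6, 142 and 156 TPM in the T0 replicates. The T16 libraries were close together (mean 39.7 TPM, SD 2.77, n = 3), and T0 replicate 1 was the lowest library of all. The log2 fold change was -1.26 (SE 0.55), and -1.70 without T0 replicate 1. T0 replicate 1 also had the lowest sum of oocyte markers at T0 and the highest sums of stroma markers (2443 TPM, against 1192 and 1062 TPM in T0 replicates 2 and 3) and theca markers (1271 TPM, against 252 and 61.7 TPM). The theca sum there was nearly all STAR (1268 TPM). T16 replicate 2 had the lowest oocyte sum of the T16 libraries, and its HSPA1A level was the middle one among them in TPM and in normalised CPM. Its DNAJB1 level was the highest of the T16 libraries in TPM. In normalised CPM it was the middle one (61.2, against 52.5 and 67.4 in T16 replicates 1 and 3). The part of the oocyte, stroma and theca markers in the HSPA1A and DNAJB1 values, and in those of HSPD1 below, was not tested.

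HSPB1, the small heat shock protein HSP27, was near the limit of detection. It had 0, 0 and 11 counts in the T16 replicates, against 13, 35 and 51 counts in the T0 replicates, which is at most 0.651 TPM at T16 and 1.21 to 5.35 TPM at T0. Every T16 library was below every T0 library. Over the groups, 11 counts at T16 stood against 99 at T0, so that the T16 level was 0.0969 times the T0 level once library sizes were taken into account. The exact 95% interval of that ratio, which covers counting error alone, was 0.0468 to 0.181.

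The mitochondrial pair HSPD1 and HSPE1, neighbouring genes on chromosome 2 in the RefSeq table, had unlike profiles. HSPD1 had 568, 712 and 592 TPM in the T16 replicates, against 566, 232 and 233 TPM in the T0 replicates. T0 replicate 1 again sat beside the T16 libraries: it was just below them in TPM and inside their range in normalised CPM. The log2 fold change of HSPD1 was 0.90 (SE 0.51), and 1.63 without T0 replicate 1. HSPE1 had 768, 620 and 1033 TPM in the T16 replicates, against 575, 795 and 992 TPM in the T0 replicates, with overlapping groups and a log2 fold change of 0.21 (SE 0.37). Its sign was not stable, since the value was -0.17 without T16 replicate 3.

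**Figure D2:**
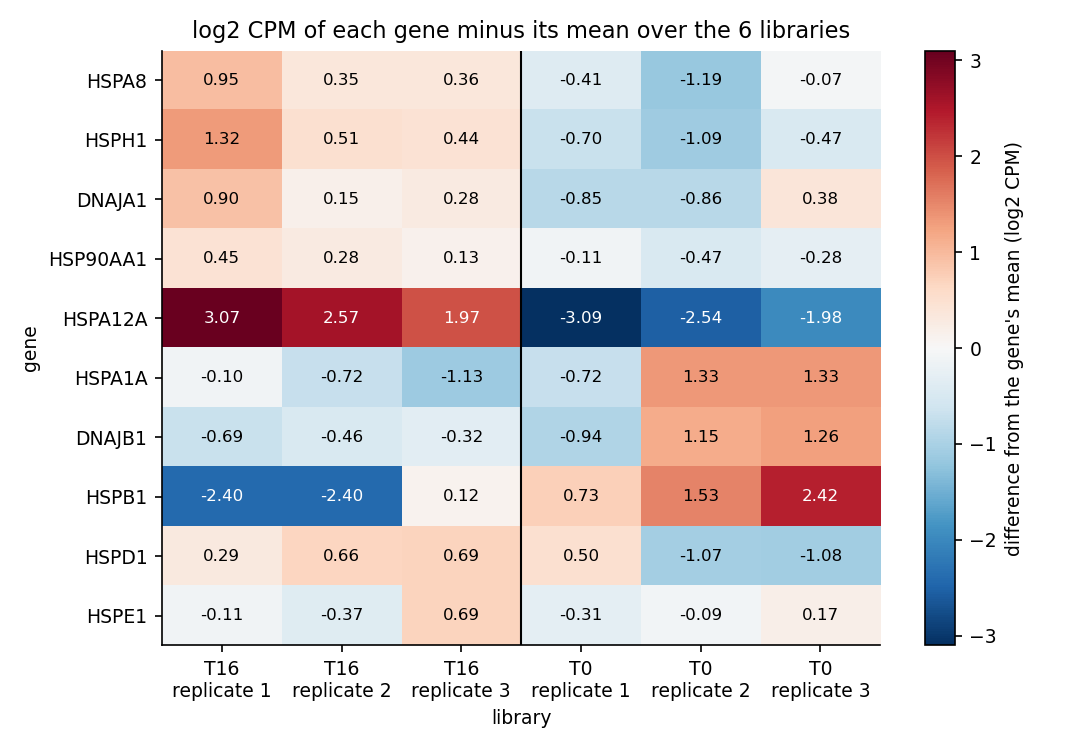
Normalised log2 CPM of each heat shock gene (rows) minus its mean over the 6 libraries, for the 3 T16 libraries (left of the line) and the 3 T0 libraries (right); red is above and blue below the gene's mean. HSPA8, HSPH1 and HSP90AA1 are above their means in all T16 libraries and below in all T0 libraries, whereas HSPA1A and DNAJB1 are high only in T0 replicates 2 and 3 (1.33 and 1.33 for HSPA1A).

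Some pairs of members had like profiles. As a measure of likeness, the log2 CPM of a gene was centred on its mean over the 6 libraries, and the root mean square difference between 2 such profiles was taken. Of the 45 pairs, HSPA8 and HSPH1 were closest (0.27), followed by HSPA8 and DNAJA1 (0.31) and HSPA8 and HSP90AA1 (0.40). HSPA1A and DNAJB1 were the 5th closest pair (0.44). The pairs did not form clean sets, since HSP90AA1 was closer to HSPE1 (0.49) than to HSPH1 (0.53). The measure is not scaled for how much a gene varies, so genes that vary little lie close together. HSPA12A and HSPB1 were the farthest apart (4.25). The points share libraries and depth, and no test was made.

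Outside the list, the genes closest to HSPA1A among 6546 well expressed genes were HDAC11 (root mean square difference 0.24), FAM107A (0.24), ZNF32 (0.31), PCBD1 (0.32) and ALDH1A2 (0.34), where the median gene was 1.28 away. HDAC11, a histone deacetylase, had 19.3, 16.3 and 7.10 TPM in the T16 replicates, against 12.7, 47.4 and 49.8 TPM in the T0 replicates. Closest to HSPD1 were DESI1 (0.07), RILPL1 (0.12), SLC31A1 (0.13), MEMO1 (0.14) and TUBA1B (0.15), with a median of 0.80 over all genes. TUBA1B, an alpha-tubulin, had 2578, 3396 and 3038 TPM in the T16 replicates, against 2777, 1315 and 1441 TPM in the T0 replicates. For both HDAC11 and TUBA1B, T0 replicate 1 lay within the T16 range, as it did for HSPA1A in TPM and for HSPD1 in normalised CPM. Both genes were picked for likeness over these same libraries, so this in part repeats the choice.

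Ratios within a library do not depend on its scaling, and those of HSPA1A to HSPA8 and of DNAJB1 to DNAJA1 did not overlap between groups. Both divide a gene whose mean was lower at T16 by a gene whose mean was higher, so they in part repeat the differences given above. How often other pairs of genes separate was not counted, and no test was made. HSPA1A was 0.0885, 0.0867 and 0.0648 times as abundant as HSPA8 in the T16 replicates, against 0.147, 1.05 and 0.481 times in the T0 replicates. Every T16 library was below every T0 library, T0 replicate 1 included, although that library was the lowest of its group. The mean log2 ratio was -3.66 (SD 0.25, n = 3) at T16 and -1.25 (SD 1.42, n = 3) at T0. In T0 replicate 2 HSPA1A exceeded HSPA8, the 1 library in which HSPA8 was not the most abundant of the 10 genes.

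DNAJB1 was 0.0410, 0.0807 and 0.0812 times as abundant as DNAJA1 in the T16 replicates, against 0.116, 0.496 and 0.227 times in the T0 replicates, again without overlap. The ratio of HSP90AA1 to its constitutive counterpart HSP90AB1 was nearly constant, at 1.54 (SD 0.0981, n = 3) at T16 and 1.43 (SD 0.118, n = 3) at T0. HSPD1 to HSPE1 was 0.740, 1.15 and 0.573 in the T16 replicates, against 0.984, 0.292 and 0.235 in the T0 replicates, so the groups overlapped through T0 replicate 1.

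**Figure D3:**
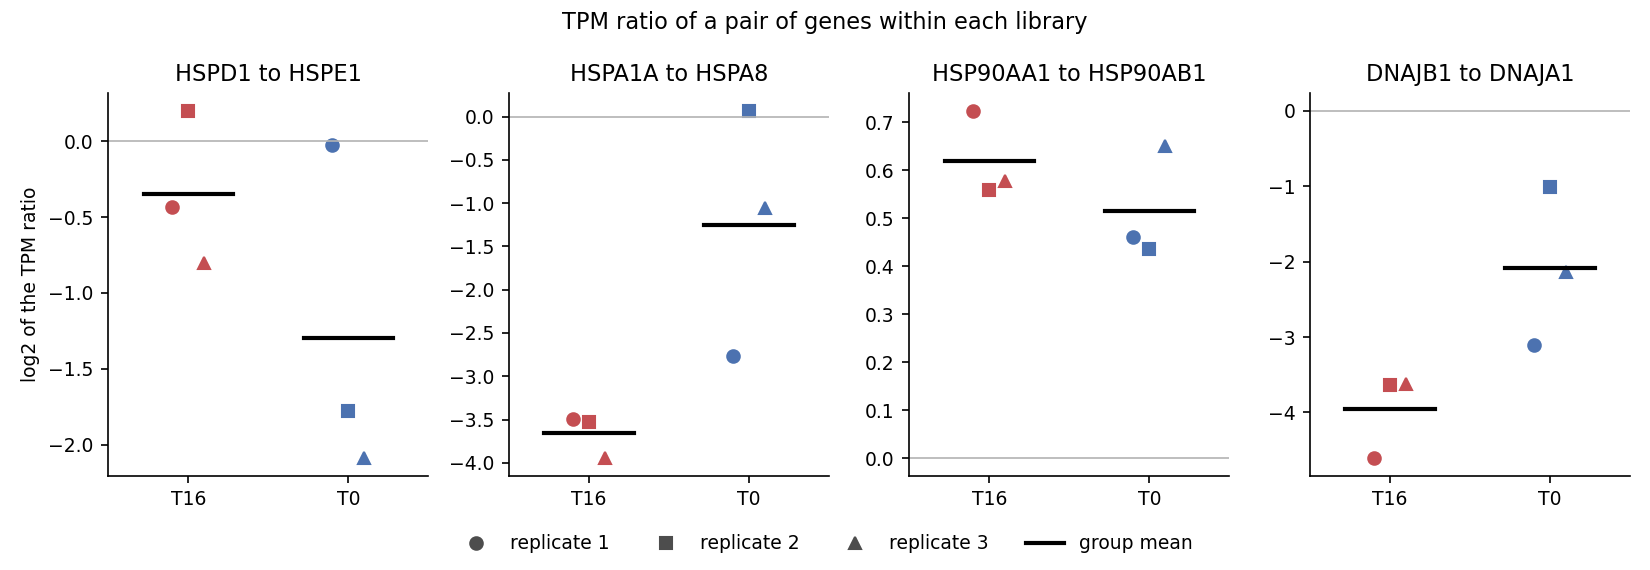
log2 of the TPM ratio of 4 gene pairs within each library (vertical axes differ between panels), for T16 (left, red) and T0 (right, blue); symbols mark replicate numbers, black lines the group means (n = 3) and the grey line a ratio of 1. HSPA1A to HSPA8 and DNAJB1 to DNAJA1 are lower in every T16 library, while HSP90AA1 to HSP90AB1 moves within a narrow range.

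HSPD1 and HSPH1 had several transcripts in the files. The main HSPD1 transcript carried 85.3% to 86.5% of its TPM at T16 and 76.3% to 82.7% at T0. A minor HSPD1 transcript carried 1.49% to 2.11% at T16, against 2.19%, 8.90% and 11.2% in T0 replicates 1, 2 and 3. The shorter HSPH1 transcript carried 8.45% to 15.0% at T16 and 10.6% to 23.7% at T0, with overlap. DNAJB1 has 3 transcripts in the RefSeq table, of which 1 was in the files.

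Over the 10 genes, the summed level was 10454, 7372 and 6439 TPM in the T16 replicates, against 4549, 5138 and 7631 TPM in the T0 replicates, or 0.644% to 1.05% and 0.455% to 0.763% of all TPM. HSPA8 alone made up 47.6% to 55.9% of the sum at T16 and 27.2% to 43.5% at T0. The median log2 fold change was 0.69 over the 10 genes and -0.08 over the 14639 genes tested. In normalised CPM, every T16 library was above every T0 library for 4 of the 10 genes (HSPA8, HSPA12A, HSP90AA1 and HSPH1), where 13.2% of all genes were, and below for 1 (HSPB1), where 10.6% of all genes were. The edgeR quasi-likelihood test called 0 of the 10 genes at an FDR below 0.05, with a background of 0.0342% of all genes called higher and 0.00683% called lower. At an unadjusted p under 0.05 there were 3 of the 10, and 13.8% of all genes. DESeq2 called HSPA12A and HSPH1 higher and 0 of the 10 lower, with a background of 4.17% higher and 3.04% lower. Without T0 replicate 1, DESeq2 also called HSPD1 higher and HSPA1A and DNAJB1 lower, where 7.44% of all genes were called higher and 2.50% lower. Without T16 replicate 3 it also called HSPB1 lower (3.07% of all genes). In that setting the T16 counts of HSPB1 were all 0. It passed the count filter through the T0 libraries alone, so a call could only be lower. Without T0 replicate 2 DESeq2 called HSPA12A alone, with 1.72% higher and 0.657% lower. These counts describe genes that were picked with this contrast in view and support nothing further.

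**Figure D4:**
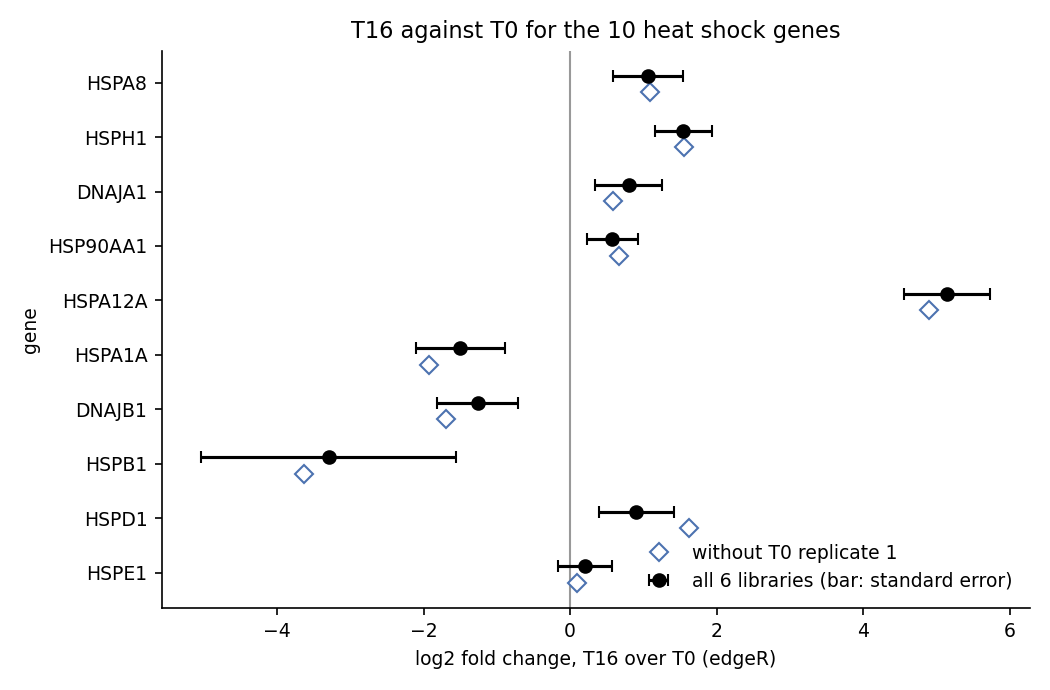
log2 fold change of T16 over T0 (edgeR) for the 10 heat shock genes; black points use all 6 libraries (3 a group) with bars of 1 standard error, and open diamonds leave out T0 replicate 1. HSPA12A lies farthest to the right (5.14), and leaving out T0 replicate 1 moves HSPA1A to -1.93, DNAJB1 to -1.70 and HSPD1 to 1.63.

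The wider chaperone network was taken as 95 other genes in 9 lists by role, of which 94 were found and 91 tested. The genes were not picked for how they moved, but the lists were drawn up with earlier results of these data known. Their counts and p-values are therefore a description too. HSPA1B, a near-identical copy of HSPA1A in other mammals, is only a synonym of HSPA1A in the RefSeq table, so reads of such copies cannot be told apart here. In normalised CPM, 30 of the 91 genes (33.0%) were above every T0 library in every T16 library, and 3 (3.30%) were below, beside the 13.2% and 10.6% of all genes given above. With any 1 library left out, 26 to 38 were above and 3 to 9 below, where 14.3% to 21.5% and 12.7% to 19.3% of all genes were. On the TPM scale, 24 of the 94 genes found were above and 3 below. Shares of all genes were not counted on the TPM scale, for this or any other list. The median log2 fold change of the network was 0.32, and 61 of the 91 values were positive. By edgeR, 0 of the 91 passed in either direction (smallest adjusted p = 0.0987). At an unadjusted p under 0.05, 17 were higher and 1 lower, beside 8.61% and 5.14% of all genes. DESeq2 called 10 higher and 0 lower, against the 4.17% and 3.04% of all genes. Leaving out T0 replicate 1 gave 18 called higher, with 7.44% of all genes. Leaving out T16 replicate 3 gave 6, with 2.51%, and leaving out T0 replicate 2 gave 3, with 1.72%.

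Among the HSP70 genes and their cochaperones, HSPA14, BAG4 and BAG5 were called higher by DESeq2. HSPA14, a ribosome-associated HSP70, had 225, 104 and 165 TPM in the T16 replicates, against 40.7, 35.5 and 55.6 TPM in the T0 replicates. Its log2 fold change was 2.04 (SE 0.39, DESeq2 adjusted p = 0.000853, edgeR adjusted p = 0.0987), and all T16 libraries were above all T0 libraries. The BAG proteins release clients from HSP70, as HSPH1 does. BAG4 averaged 44.3 TPM (SD 14.5, n = 3) at T16 and 13.3 TPM (SD 1.96, n = 3) at T0, with a log2 fold change of 1.81, and that of BAG5 was 1.40 (DESeq2 adjusted p = 0.000962 and 0.0177, edgeR adjusted p = 0.107 and 0.140). BAG3, an HSF1 target that links HSP70 to autophagy, had 296, 138 and 156 TPM at T16, against 92.2, 81.2 and 133 TPM at T0, and passed neither test (log2 fold change 1.04, edgeR adjusted p = 0.283, DESeq2 adjusted p = 0.207).

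Of the 14 genes listed for HSP90 and its cochaperones, 7 were above every T0 library in normalised CPM and 0 below, beside 13.2% and 10.6% of all genes. In TPM 4 were above. CHORDC1, an HSP90 cochaperone, had 148, 146 and 110 TPM in the T16 replicates, against 52.7, 27.6 and 39.2 TPM in the T0 replicates. Its log2 fold change was 1.82 (SE 0.38, DESeq2 adjusted p = 0.000948, edgeR adjusted p = 0.107). TTC4 was also called higher by DESeq2 (log2 fold change 1.27, DESeq2 adjusted p = 0.0222), as was STIP1, which links HSP70 to HSP90 and was named after its values were seen (log2 fold change 1.20, edgeR adjusted p = 0.147). HSP90AB1 itself averaged 704 TPM (SD 130, n = 3) at T16 and 543 TPM (SD 13.4, n = 3) at T0, and passed neither test (log2 fold change 0.46, edgeR adjusted p = 0.609).

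Of the 15 J domain proteins, 6 were above every T0 library in normalised CPM and 0 below (13.2% and 10.6% of all genes), and 4 were above in TPM. DESeq2 called DNAJC21, which acts in ribosome assembly, and DNAJB14, a J protein of the endoplasmic reticulum membrane, with log2 fold changes of 1.41 and 1.31 (edgeR adjusted p = 0.138 and 0.146). Of the 8 small heat shock proteins listed, 5 were tested, and all 5 had overlapping groups and passed neither test (median log2 fold change -0.88, smallest edgeR adjusted p = 0.604). CRYAB, the most abundant of them, had 290, 178 and 300 TPM at T16, against 292, 142 and 197 TPM at T0, with overlapping groups (log2 fold change 0.38, edgeR adjusted p = 0.787).

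In the mitochondrial list DESeq2 called HSPA9, the mitochondrial HSP70, and none of the other 16 genes. HSPA9 had 855, 597 and 515 TPM in the T16 replicates, against 288, 209 and 235 TPM in the T0 replicates, and the log2 fold change was 1.50 (SE 0.36, DESeq2 adjusted p = 0.0029, edgeR adjusted p = 0.138). T0 replicate 1 was here close to the other T0 libraries, unlike for HSPD1. The disaggregase CLPB passed neither test (log2 fold change 0.88, edgeR adjusted p = 0.316). In normalised CPM 5 of the 17 genes were above and 2 below every T0 library, the second count being near the 10.6% of all genes. In TPM 3 were above and 1 below. The 2 below in normalised CPM were the protease subunit CLPP (log2 fold change -0.55, edgeR adjusted p = 0.446) and the iron-sulfur cochaperone HSCB (-0.40, edgeR adjusted p = 0.777), which overlapped in TPM. Both were named after their values were seen.

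The cytosolic chaperonin TRiC, which folds actin and tubulin, and prefoldin, which hands it clients, were counted apart. In normalised CPM, 7 of the 8 TRiC subunits were above every T0 library (13.2% of all genes), with a median log2 fold change of 1.04, whereas 0 of the 6 prefoldin subunits were above and 1, PFDN5, was below (10.6% of all genes). PFDN5, named after its value was seen, passed neither test (log2 fold change -0.86, edgeR adjusted p = 0.336). The difference between these sets was not tested. CCT4 had 779, 528 and 470 TPM at T16, against 240, 171 and 186 TPM at T0, and was called by DESeq2 (log2 fold change 1.64, DESeq2 adjusted p = 0.00106, edgeR adjusted p = 0.123). CCT6A had 451, 492 and 379 TPM at T16, against 309, 132 and 104 TPM at T0, with T0 replicate 1 nearest to T16 (log2 fold change 1.31, edgeR adjusted p = 0.331).

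**Figure D5:**
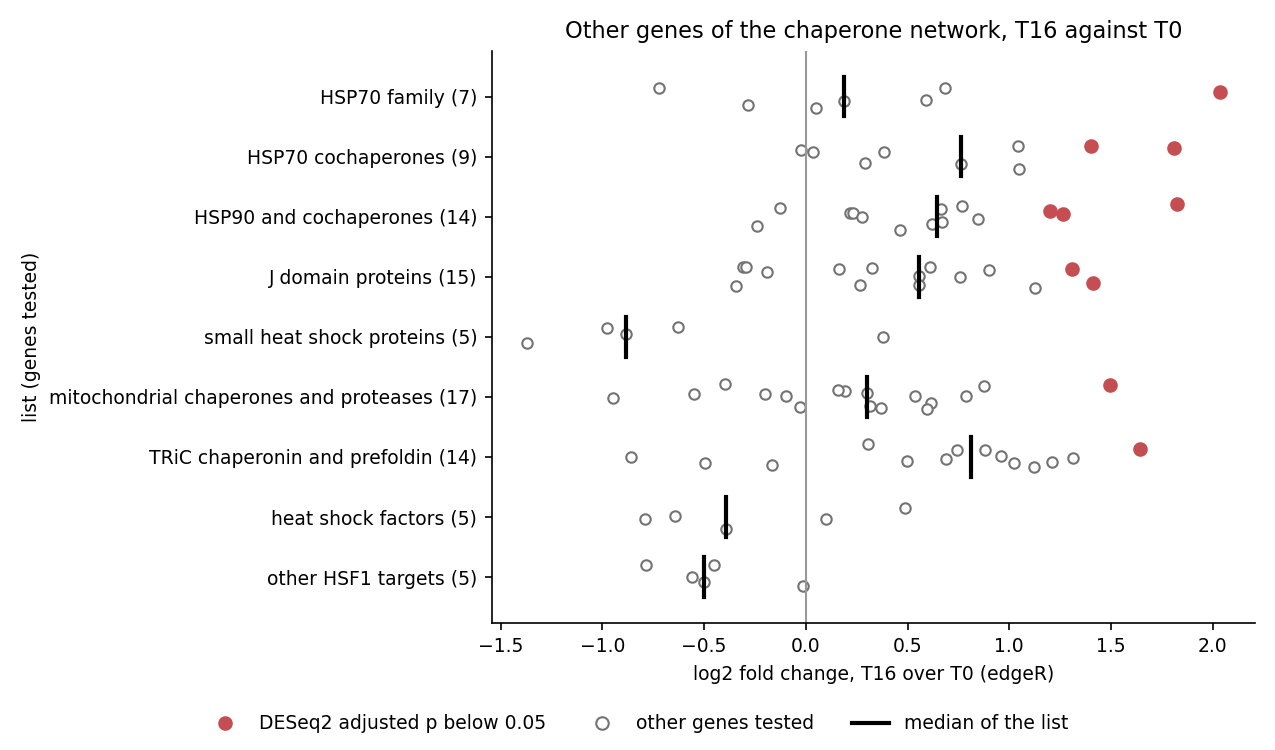
log2 fold change of T16 over T0 (edgeR, 3 libraries a group) for the 91 tested genes of the chaperone network, in 9 lists by role with the number of genes tested; red points were called by DESeq2 at an adjusted p below 0.05, open points were not, and black bars are list medians. All 10 red points lie right of 0, and the medians of the small heat shock proteins, the heat shock factors and the other HSF1 targets lie left of it.

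None of the transcription factors that drive heat shock genes passed a test. HSF1 had 181, 162 and 188 TPM in the T16 replicates, against 172, 194 and 174 TPM in the T0 replicates. The log2 fold change was 0.10 (SE 0.29, edgeR adjusted p = 0.923), and -0.07 without T16 replicate 3. HSF2 averaged 81.9 TPM (SD 27.5, n = 3) at T16 and 63.0 TPM (SD 17.3, n = 3) at T0 (log2 fold change 0.49, edgeR adjusted p = 0.574). Both had overlapping groups, and 0 of the 5 genes in the list of heat shock factors had an unadjusted p under 0.05 by edgeR or were called by DESeq2. In TPM 1 of the 5, HSBP1, which is not itself a heat shock factor, was lower in every T16 library (228 to 299 TPM, against 339 to 408 TPM at T0). Its groups overlapped in normalised CPM (log2 fold change -0.40, edgeR adjusted p = 0.647). HSBP1 was named after its values were seen. Of the 5 genes listed as other HSF1 targets, 0 had an unadjusted p under 0.05 by edgeR or were called by DESeq2, and their median log2 fold change was -0.50. The genes called HSF1 targets above, BAG3, HSPA1A and DNAJB1, were not in that list, and they went both ways. Their log2 fold changes were 1.04 for BAG3, -1.50 for HSPA1A and -1.26 for DNAJB1. They are not a full set, since the other heat shock genes were not sorted by whether HSF1 drives them.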

How the data were processed

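RNA of 6 PMF pools, 3 at T16 and 3 at T0, was amplified with a SMART-Seq kit and sequenced by the authors. After trimming (Trim Galore, fastp), reads were assigned by Salmon to transcripts of ARS-UCD1.3, and the authors deposited estimated counts and TPM per RefSeq transcript, beside transcript lengths. TPM divide by length and are shares of a library, so 1 abundant gene lowers the others. Here both were summed to genes through RefSeq gene names of ARS-UCD2.0, a later assembly used for names and neighbours only. Of 76123 transcripts, 50205 matched by accession without version, and the rest, 9.74% to 10.9% of a library's counts, were left out.

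Counts were rounded and tested across all genes with edgeR 4.0.16 (R 4.3.3; TMM, quasi-likelihood, Benjamini-Hochberg adjusted p) on the 14639 genes that reached 10 counts in 3 or more libraries. The FDR threshold was 0.05. DESeq2 1.42.0 was the alternative tool. SE follow from the edgeR F statistic. The fits were tested on simulated data. Alternatives were DESeq2 size factors, other count filters, length offsets, the replicate number as a block and each library left out. The heat shock genes, lists and rules were chosen with earlier results of these data known. Named network genes were HSF1, HSF2, HSPA1B, HSP90AB1, HSPA9, BAG3 and CRYAB, and per list the 2 with the largest change among genes of an average log2 CPM of at least 3 whose groups did not overlap. Genes alike in profile were the 5 closest of an average log2 CPM of at least 5. The intervals cover counting error only. Of the 8 marker lists, the sums of oocyte, granulosa, stroma, endothelium, theca and leukocyte markers overlapped between groups and that of erythrocytes was at 0. Promoter and protein sequences were not analysed here.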

Additional observations from a re-analysis of the deposited data

How the results depend on the processing

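Over all genes, edgeR called 5 genes higher and 1 lower at T16. With the replicate block it called 0 and 0 (1385 at an unadjusted p under 0.05), with at least 10 counts in all 6 libraries 13 and 6, and without the count filter 4 were lower. DESeq2 called 594 and 433. With 1 library left out, edgeR called 0 to 2 higher and 0 to 1 lower. Same-numbered pools did not deviate together (correlations of -0.44, -0.12 and -0.005), and the labels name no pairing. With 3 pools a group, such correlations cannot exclude that the numbers pair them. The filter of 10 counts in all 6 libraries was the 1 edgeR alternative that called a heat shock gene, HSPA12A. The median log2 fold change of the 10 heat shock genes went from 0.40 (without T16 replicate 1) to 0.74 (without T16 replicate 3). Network genes called higher were 0 by edgeR under each alternative and 10 by DESeq2, or 3 to 18 with 1 library left out, an alternative chosen after seeing the data. Of the other values under alternatives, 311 kept their place, 7 moved, among them HSPB1 (-4.91 with the block), and 9 were network genes chosen by the naming rule that passed with DESeq2 and not with edgeR, as STIP1, named outside it, also did. Depth limits HSPB1, and HSPA12A at T0, most. For HSPB1, without T16 replicate 3 the T16 counts are all 0, and no fold is given. The cause of these moves was not tested.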
